A study of Mus musculus with 6 samples.

Results

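The cytochrome P450 genes expressed in NMuMG cells, a mouse mammary epithelial cell line, were followed through treatment with TGF-β, alone or together with 2APB. The genes were selected on their raw counts over all libraries. Entries of the deposited count table whose symbol has the form Cyp, a family number, a subfamily letter and a gene number were taken, which excluded Cyp51, and only those with a mean raw count of 20 or more over the 6 libraries were kept. Gene positions are those of GENCODE M21 on GRCm38. Of the 18512 entries in the table, 76 had such a symbol and 32 of these passed the mean. Cells received DMSO as the vehicle, 5 ng/ml TGF-β, or the same TGF-β dose plus 2APB at 50 uM. 2APB is used as an inhibitor of store-operated calcium entry, but the paper proposes that it also raises calcium entry through the channel ORAI3. RNA was taken at 24 h according to the results of the study, whose methods place 2APB 24 h before TGF-β, so that the timing is not settled. Each group had 2 biological replicates of the 1 cell line, and no library of 2APB without TGF-β was analysed here, so that an effect of 2APB alone cannot be told apart from its effect on the TGF-β response.

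Cytochrome P450 enzymes are heme proteins that insert an oxygen atom into lipids, steroids, vitamins and foreign chemicals, and most of them take their electrons from the reductase encoded by Por. Families 2 and 3 include the enzymes of drug and arachidonic acid metabolism, which are best known from liver and intestine, and family 4 holds the fatty acid omega-hydroxylases. Other families make or degrade single hormones or sterols, and family 1 is induced through the aryl hydrocarbon receptor. TGF-β drives epithelial cells such as NMuMG towards a mesenchymal state.

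The 6 libraries held 71840570 to 79473182 counts each. Every value in the table is even, and the smallest value above 0 is 2. Of the markers checked, several of hepatocytes were present in DMSO. Alb, which encodes albumin, had 32124 and 27900 counts in the DMSO libraries, 96 and 40 in those given TGF-β, and 40 and 20 in those given TGF-β+2APB. Others were near absent: Apoh, Ahsg and Tat had 10 counts or fewer in every library, and Cps1 had 26 and 14 in DMSO. Ttr, Apoa1 and Fgg reached a group mean of 20 in DMSO alone and so had to differ. With these included, 8 of the 9 hepatocyte genes tested (14 listed) were lower in each treated group than in DMSO. The exception, Apob, carried most of the summed normalized count of the list, which was 456600 and 470194 in DMSO and 201216 to 593502 in the treated libraries. All 3 enterocyte genes tested (6 listed) were also lower in both treated groups, from a sum of 33666 and 36195 in DMSO to 2572 to 7912. Of these, Fabp2 reached a group mean of 20 in DMSO alone. Of the 13 mammary epithelial genes listed, 7 were tested, of which 3 rose and 3 fell with TGF-β, and 4 rose and 3 fell with TGF-β+2APB against DMSO. Cldn4, at 2 and 6 counts in DMSO, reached a group mean of 20 in the treated groups alone, so that its rise was built in. Krt8 and Krt18 had 155860 or more counts in every library, and Esr1, Elf5 and Csn3 had 50 or fewer. Of the 3 kidney tubule genes tested (8 listed), 2 fell in each comparison with DMSO, and the sum went from 1304 and 1323 in DMSO to 295 to 426, most of it from Cubn, while the defining genes Slc34a1 and Slc5a2 were at 4 counts or fewer. The fibroblast sum went the other way, from 142 and 163 in DMSO to 1716 to 2443, most of it from Col1a1, and of the 2 genes tested (5 listed) 1 rose with TGF-β and 2 with TGF-β+2APB against DMSO. Endothelial and fat cell markers were at 26 counts or fewer. The summed normalized count of the 4 leukocyte genes was 1428 in TGF-β+2APB replicate 2 against 184 to 484 in the other 5 libraries. Over all genes tested, 21.8% rose and 19.7% fell with TGF-β, and 25.6% rose and 27.2% fell with TGF-β+2APB against DMSO. The part of the marker transcripts in the P450 changes was not tested. In RNA of whole cultures, fewer cells of a type and less RNA per cell cannot be told apart.

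The summed P450 signal fell with TGF-β. The 76 P450 entries took 0.0691% and 0.0678% of all counts in the DMSO libraries, 0.0227% and 0.0208% in the TGF-β libraries and 0.0163% and 0.0167% in the TGF-β+2APB libraries. When normalized counts were divided by the length of each gene's exons and summed, the total was 18626 ± 444 per kilobase in DMSO, 5379 ± 443 with TGF-β and 4172 ± 48.9 with TGF-β+2APB (mean ± SD, n = 2). Family 2 gave the largest part in DMSO (9149 ± 425), and its sum was 9.41 times as high in DMSO as with TGF-β. Family 3 was 8.07 times and family 4 was 3.49 times as high in DMSO as with TGF-β. The sums of steroid genes and of family 1 were low in DMSO, at 30.5 and 36.8 per kilobase, and were 3.61 and 3.78 times as high with TGF-β. These sums are descriptions and carry no test.

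**Figure D1:**
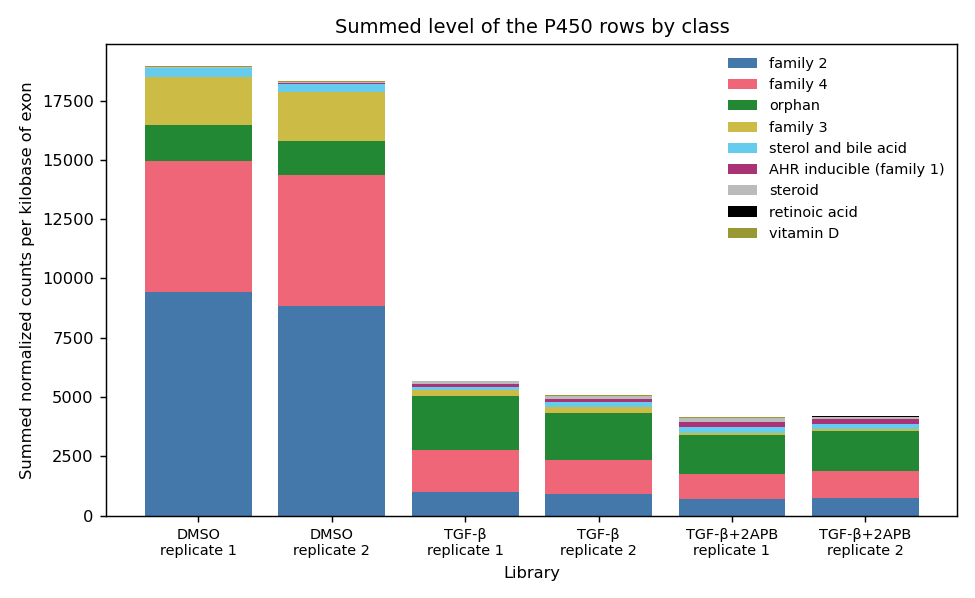
Summed P450 signal in each library (x axis) as normalized counts per kilobase of exon (y axis, from 0), stacked by class over the 76 P450 entries. Both DMSO bars reach 18313 or more and are mostly families 2 and 4, whereas the highest treated bar is at 5692 and Cyp20a1, the orphan class, is the largest segment of each.

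The order of the genes also changed. By level per kilobase, the leading genes in DMSO were Cyp2c65 (3258 ± 107), Cyp4a12a (3001 ± 23.6) and Cyp2s1 (2336 ± 121), each above the next by more than its SD, followed by Cyp2c68 (1764 ± 83.2) and Cyp3a13 (1718 ± 9.48), which lay within 1 SD of each other. Cyp20a1, an orphan P450 with no established substrate, was the 6th in DMSO and the 1st in both treated groups, where it made up 39.56% and 40.04% of the summed P450 level per kilobase, against 7.87% in DMSO. With TGF-β it was followed by Cyp4f16 (669 ± 120) and Cyp4f13 (591 ± 40.4), which lay within 1 SD of each other. With TGF-β+2APB it was followed by Cyp2j6 (554 ± 9.88), Cyp4f13 (467 ± 20.6) and Cyp4f16 (455 ± 1.11), of which the last 2 also lay within 1 SD of each other. Cyp1b1 moved from 23rd in DMSO to 9th with TGF-β and 5th with TGF-β+2APB.

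**Figure D2:**
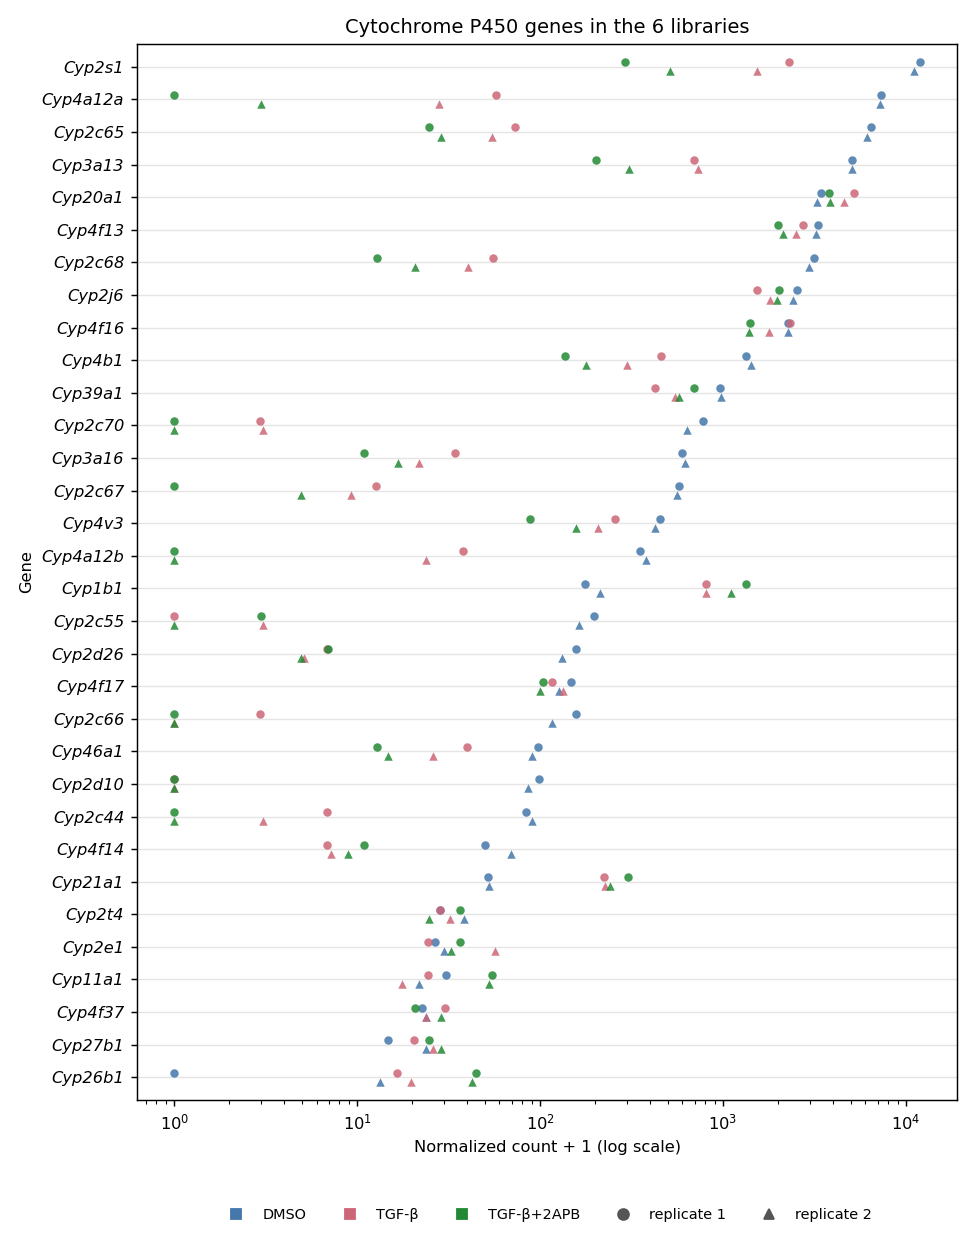
Normalized count + 1 (x axis, log scale) of the 32 P450 genes (y axis, ordered by their DMSO mean) in the 6 libraries, with color for the group and symbol for the replicate. The treated libraries lie left of DMSO for most genes of families 2, 3 and 4, and right of it for Cyp1b1, Cyp21a1 and Cyp20a1.

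The first comparison asked which P450 genes TGF-β changed. With TGF-β, 3 of the 32 genes rose and 20 fell, at an adjusted p of 0.05 or less in edgeR's quasi-likelihood test. Over all 13353 genes tested, 21.8% rose and 19.7% fell. The median log2 fold change of the P450 genes was -1.70, against -0.01 over all genes tested. The libraries of the groups did not overlap for 5 higher and 21 lower genes, where 36.0% and 36.5% of all genes tested did so. The rule favours such counts, because 8 genes (Cyp2c70, Cyp2c67, Cyp2c55, Cyp2d26, Cyp2c66, Cyp2d10, Cyp2c44 and Cyp4f14) reached a group mean of 20 in DMSO alone and so had to differ. Of the 17 genes at 20 or more in all 3 groups, 3 rose, 7 fell and 7 were not called.

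In the comparison of TGF-β+2APB with DMSO, 2 of the 32 genes rose and 22 fell, where 25.6% of all genes tested rose and 27.2% fell, and the median log2 fold change was -2.77 against -0.003 over all genes. Of the 17 genes at 20 or more in all groups, 2 rose, 9 fell and 6 were not called. Libraries did not overlap for 7 higher and 23 lower genes, against 42.3% and 43.8% of all genes. The comparisons with DMSO share the DMSO libraries.

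The last comparison, TGF-β+2APB against TGF-β, asked what 2APB changed in cells given TGF-β. Here 1 of the 32 genes rose and 10 fell, where 6.58% of all genes tested rose and 10.9% fell, and the median log2 fold change was -0.34 against -0.004 over all genes. Of the 17 genes at 20 or more in all groups, 1 rose, 7 fell and 9 were not called. Libraries did not overlap for 7 higher and 17 lower genes, against 27% and 31% of all genes. This comparison shares the TGF-β libraries with the first. It depended on single libraries: the falls numbered 4 without TGF-β+2APB replicate 1, 9 without TGF-β+2APB replicate 2, 5 without either DMSO replicate and 13 without TGF-β replicate 2, and the 1 rise, of Cyp1b1, was lost in each of the 6 fits that left out a library. Without TGF-β+2APB replicate 2, the library with the high leukocyte sum, the counts against DMSO were 2 rises and 20 falls.

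**Figure D3:**
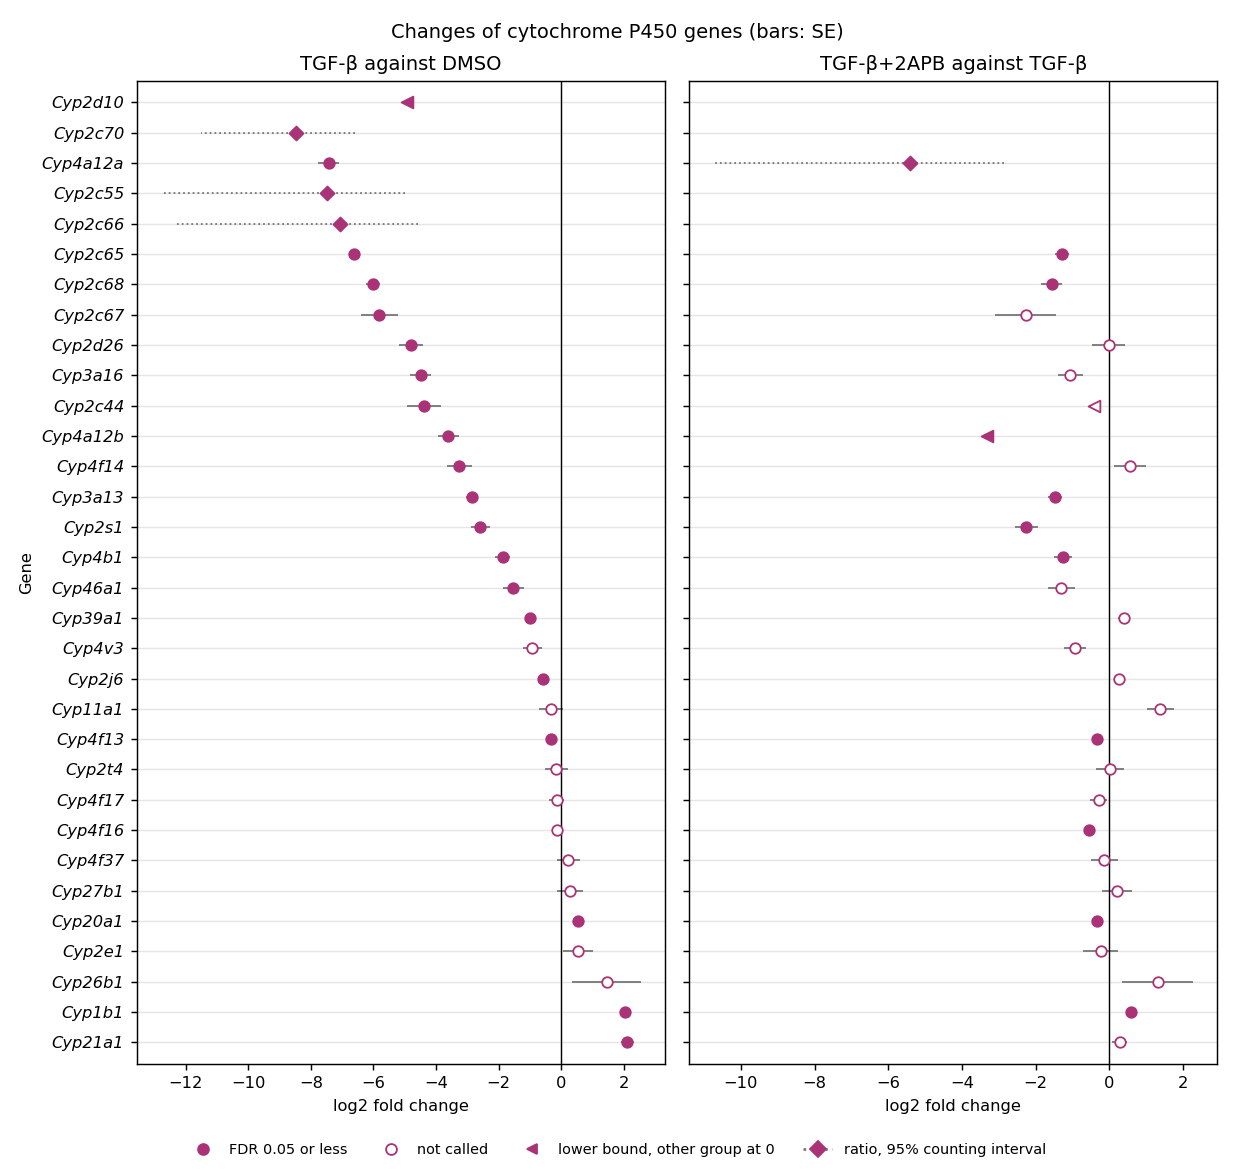
Log2 fold change (x axes) of the P450 genes (y axis, ordered by the fitted change with TGF-β) for TGF-β against DMSO (left) and TGF-β+2APB against TGF-β (right), with bars for the SE. Filled symbols passed an adjusted p of 0.05, triangles are lower bounds where the other group had 0 counts, diamonds are ratios with a 95% counting interval where the other group had 3 counts or fewer per library, and genes at 3 counts or fewer in every library compared are left out.

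Family 2 was led by the Cyp2c genes, 7 of its 13 members. All 7 were lower in both treated groups than in DMSO, where 19.7% of all genes tested fell with TGF-β and 27.2% with TGF-β+2APB. Of the 7, Cyp2c70, Cyp2c67, Cyp2c55, Cyp2c66 and Cyp2c44 reached a group mean of 20 in DMSO alone and so had to differ. These enzymes oxidize arachidonic acid and drugs, and mouse Cyp2c70 makes the muricholic bile acids. Cyp2c65 (chr19:39061015-39093944, plus strand) had 6540 and 5940 counts in the DMSO libraries, 74 and 52 in those given TGF-β, and 24 and 28 in those given TGF-β+2APB. The libraries of the 3 groups did not overlap, and the log2 fold change was -6.63 (SE 0.16, edgeR adjusted p = 2.29e-05) with TGF-β and -1.29 (SE 0.19, edgeR adjusted p = 0.0113) from TGF-β to TGF-β+2APB. That second fall was not called without TGF-β+2APB replicate 1 (edgeR adjusted p = 0.0622).

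Cyp2c68 had 3198 and 2846 counts in the DMSO libraries, 56 and 38 in those given TGF-β, and 12 and 20 in those given TGF-β+2APB. It fell by 6.01 (SE 0.23) on the log2 scale with TGF-β (edgeR adjusted p = 5.81e-05) and by a further 1.57 (SE 0.28) with TGF-β+2APB (edgeR adjusted p = 0.0181). The further fall was not called without DMSO replicate 1 (edgeR adjusted p = 0.0584), without DMSO replicate 2 (0.0584) or without TGF-β+2APB replicate 1 (0.0775).

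Cyp2c70 had 790 and 618 counts in DMSO, 2 in each TGF-β library and 0 in each TGF-β+2APB library. Its ratio of DMSO to TGF-β was 353 (95% counting interval 97.3 to 2919.5), and it was at least 238.6-fold lower with TGF-β+2APB than in DMSO, taking 3 counts per library as the limit that a count of 0 allows. Cyp2c55 had 200 and 158 counts in the DMSO libraries, 0 and 2 in those given TGF-β, and 2 and 0 in those given TGF-β+2APB, and its ratio of DMSO to TGF-β was 179 (95% counting interval 31.8 to 7127). Cyp2c66 had 158 and 112 counts in the DMSO libraries, 2 and 0 in those given TGF-β and 0 in both TGF-β+2APB libraries, and its ratio of DMSO to TGF-β was 135 (95% counting interval 23.9 to 5384.5). Because these 3 genes passed the mean through DMSO alone, no p is given for their difference from DMSO. Between the treated groups these 3 genes were too low for a fold change. The intervals and the limit of 3 counts cover counting error only, and the intervals took the counts divided by 2 because every value is even. The limit of 3, here and below, was set on the undivided values. Set on the divided counts, it would give lower bounds.

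The remaining Cyp2c genes were lower in the treated libraries too. Cyp2c67 went from 584 and 544 counts in DMSO to 12 and 8 with TGF-β and 0 and 4 with 2APB added. Cyp2c44, an arachidonic acid epoxygenase, went from 84 and 86 to 6 and 2 and then to 0 in both libraries. The fitted log2 fold change with TGF-β was -5.81 (SE 0.60) for Cyp2c67 and -4.38 (SE 0.56) for Cyp2c44, again with no p because both passed through DMSO alone. The 7 Cyp2c genes that passed the mean lie on chromosome 19, where 14 Cyp2c entries of the table are found. The other 7, among them Cyp2c29, Cyp2c38, Cyp2c39, Cyp2c40, Cyp2c54 and Cyp2c69, had 36 counts or fewer in every library and are interspersed with the genes that passed the mean. Reads of these paralogs may be shared: of the 50-base words in the longest transcript, 52.8% for Cyp2c67, 43.3% for Cyp2c68 and 20.6% for Cyp2c65 also occur in transcripts of other genes, most of all Cyp2c40 and Cyp2c66, whereas Cyp2c70 and Cyp2c44 have none. Cyp2c66 shares 20.4% of its words with Cyp2c65. It held 2.36% and 1.85% of the counts of that pair in the DMSO libraries and 2.63% and 0% in the TGF-β libraries. Whether its counts come from reads of Cyp2c65 was not tested. Among the entries with low counts, the share is 72.1% for Cyp2c40 and 54.8% for Cyp2c69, so that their counts may understate their RNA. The treatment of reads with several alignments is not given in the sources used here.

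**Figure D4:**
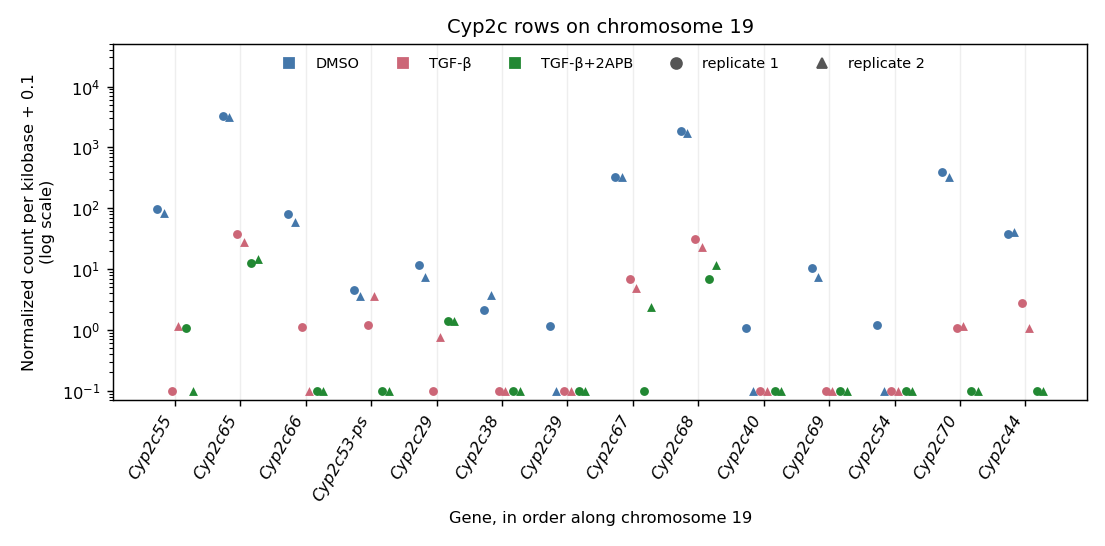
Normalized count per kilobase of exon + 0.1 (y axis, log scale) of the 14 Cyp2c entries on chromosome 19 in their order along the chromosome (x axis), by group (color) and replicate (symbol). Cyp2c65 and Cyp2c68 stand highest in DMSO, and neighbours such as Cyp2c39 and Cyp2c40 are at or near 0. The treated libraries lie below DMSO for each gene that passed the mean, which was built in for all of these but Cyp2c65 and Cyp2c68.

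The promoters of these genes are shown because several share an element on which the genes of this cluster can be compared. RefSeq promoter windows of 300 bases (250 before the start site and 50 after it, GRCm38.p6) were given for 26 of the 32 P450 genes, in 30 windows. The 9 letters CAAAGTCCA, a form of the site bound by the nuclear receptor HNF4A, were found on either strand in 156 of 32851 windows of all genes (0.475%) and in 5 of the 30 P450 windows. Cyp2c55 also had a window, which did not hold these letters. The letters were chosen after the promoters and the counts had been seen. The element starts 116 bases before the start site of Cyp2c65 (chr19:39060850-39060938, plus strand), 125 bases before that of Cyp2c67 (chr19:39649119-39649207, minus strand), 77 before Cyp2c68 (chr19:39741130-39741218, minus strand), 64 before Cyp2c70 (chr19:40187302-40187390, minus strand) and 99 before Cyp3a16 (chr5:145469774-145469862, minus strand). In each sequence below the element is in capitals with 40 bases on either side, 5′ to 3′ on the strand of the gene. The last is the matching stretch of Cyp2c66 (chr19:39113754-39113842, plus strand), the neighbour of Cyp2c65, which differs from the element by A9C, counted from 1 at its first base.
Cyp2c65: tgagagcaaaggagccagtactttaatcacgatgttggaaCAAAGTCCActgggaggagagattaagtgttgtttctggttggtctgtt
Cyp2c67: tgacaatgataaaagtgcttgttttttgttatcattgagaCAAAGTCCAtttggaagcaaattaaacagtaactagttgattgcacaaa
Cyp2c68: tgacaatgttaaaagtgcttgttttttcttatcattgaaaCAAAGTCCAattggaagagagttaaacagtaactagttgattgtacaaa
Cyp2c70: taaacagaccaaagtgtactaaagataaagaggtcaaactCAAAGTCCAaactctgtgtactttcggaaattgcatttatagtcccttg
Cyp3a16: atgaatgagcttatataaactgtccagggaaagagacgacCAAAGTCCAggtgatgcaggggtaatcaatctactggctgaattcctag
Cyp2c66: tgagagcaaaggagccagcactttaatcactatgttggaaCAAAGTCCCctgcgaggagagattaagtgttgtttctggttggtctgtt

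Since the letters were picked with the counts in view, the levels of these genes lend the match no weight. A match of letters is a description of the window and not a measured binding site. Hnf4a, which encodes HNF4A, had 43312 and 40626 counts in the DMSO libraries, 19628 and 13558 in those given TGF-β, and 8574 and 11586 in those given TGF-β+2APB. It changed on the log2 scale by -1.35 (SE 0.20, edgeR adjusted p = 0.00352) with TGF-β and -2.09 (SE 0.20, edgeR adjusted p = 0.000513) with TGF-β+2APB against DMSO, and -0.74 (SE 0.19, edgeR adjusted p = 0.0531) between the treated groups. Binding of HNF4A was not measured.

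Outside Cyp2c, Cyp2s1 (chr7:25802475-25816913, minus strand), a P450 known from epithelia outside the liver, was the 3rd highest P450 gene per kilobase in DMSO. It had 12166 and 10758 counts in the DMSO libraries, 2364 and 1480 in those given TGF-β, and 294 and 520 in those given TGF-β+2APB. Its libraries stepped down from group to group without overlap, with a log2 fold change of -2.59 (SE 0.31) under TGF-β (edgeR adjusted p = 0.00171) and of -2.26 (SE 0.31) from TGF-β to TGF-β+2APB (edgeR adjusted p = 0.01). Both falls were called in all 15 alternative settings.

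Cyp2j6, an arachidonic acid epoxygenase, had 2576 and 2338 counts in the DMSO libraries, 1580 and 1736 in those given TGF-β, and 2044 and 2000 in those given TGF-β+2APB. It fell by 0.57 (SE 0.10, edgeR adjusted p = 0.00644) with TGF-β on the log2 scale, and by 0.31 (SE 0.10, edgeR adjusted p = 0.0412) with TGF-β+2APB against DMSO. The TGF-β+2APB libraries lay between the other groups, and the difference of 0.26 (SE 0.10) from TGF-β was not called (edgeR adjusted p = 0.13). The fall against DMSO with TGF-β was not called without DMSO replicate 1 (edgeR adjusted p = 0.062), and the fall with TGF-β+2APB was lost without any 1 of the DMSO or TGF-β+2APB libraries (edgeR adjusted p = 0.131 to 0.211).

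Cyp2d10 had 100 and 82 counts in DMSO and 0 in all 4 treated libraries, and was at least 30.3-fold lower with TGF-β and at least 30.86-fold lower with TGF-β+2APB. Of its 50-base words, 40.5% occur in other genes, most of all in Cyp2d11. Cyp2d26 had 158 and 126 counts in DMSO and 4 to 6 in the treated libraries. Cyp2e1, the ethanol-oxidizing P450, and Cyp2t4 had 24 to 54 counts in every library and were not called in any comparison. In all, 11 of the 13 genes of family 2 fell in each comparison with DMSO (19.7% and 27.2% of all genes did), but 7 of these 11 had passed the mean through DMSO alone. Between the treated groups 3 of 13 fell, against 10.9% of all genes.

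Both family 3 genes fell. Cyp3a13 (chr5:137892932-137921619, minus strand), a drug-metabolizing P450 of the intestine, had 5146 and 4934 counts in the DMSO libraries, 708 and 702 in those given TGF-β, and 204 and 308 in those given TGF-β+2APB. The groups did not overlap, and the changes on the log2 scale were -2.84 (SE 0.19, edgeR adjusted p = 0.00024) under TGF-β and -1.49 (SE 0.19, edgeR adjusted p = 0.00778) from there to TGF-β+2APB. No 50-base word of its longest transcript occurs in another gene. Cyp3a16, which is known from the fetal and newborn liver, had 606 and 602 counts in the DMSO libraries, 34 and 20 in those given TGF-β, and 10 and 16 in those given TGF-β+2APB, and fell by 4.49 (SE 0.33) on the log2 scale with TGF-β. Its difference between the treated groups of -1.06 (SE 0.34) was not called (edgeR adjusted p = 0.0922).

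Family 4 was split. Cyp4a12a (chr4:115299046-115332815, plus strand), which makes the omega-hydroxylated form of arachidonic acid, had 7438 and 6998 counts in the DMSO libraries, 58 and 26 in those given TGF-β, and 0 and 2 in those given TGF-β+2APB. It fell by 7.43 (SE 0.33) on the log2 scale with TGF-β (edgeR adjusted p = 8.42e-05), and the ratio of TGF-β to TGF-β+2APB was 42.7 (95% counting interval 7.26 to 1726, edgeR adjusted p = 0.0118). Its neighbour Cyp4a12b had 358 and 366 counts in the DMSO libraries, 38 and 22 in those given TGF-β and 0 in both TGF-β+2APB libraries. Cyp4a12b fell by 3.60 (SE 0.34) with TGF-β (edgeR adjusted p = 0.00167) and was at least 10.1-fold lower with TGF-β+2APB than with TGF-β (edgeR adjusted p = 0.00647).

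Cyp4a12b thus held 4.59% and 4.97% of the counts of the pair in the DMSO libraries and 39.6% and 45.8% in the TGF-β libraries. The difference between the falls of the pair was not tested, and 48.9% of the 50-base words of the Cyp4a12a transcript also occur in Cyp4a12b, so that counts can be split between them. Nearby on chromosome 4, Cyp4a30b had 54 and 56 counts in DMSO and 0 in the 4 treated libraries, and Cyp4a10, Cyp4a14 and Cyp4a31 had 8 counts or fewer in every library. Cyp4b1, at the end of the same gene row, had 1360 and 1370 counts in the DMSO libraries, 472 and 286 in those given TGF-β, and 138 and 180 in those given TGF-β+2APB. It fell by 1.86 (SE 0.24, edgeR adjusted p = 0.00237) with TGF-β and by a further 1.27 (SE 0.24, edgeR adjusted p = 0.0227) with TGF-β+2APB on the log2 scale. The further fall was not called without TGF-β+2APB replicate 1 (edgeR adjusted p = 0.105) or without either DMSO replicate (0.0697 and 0.0711).

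The Cyp4f genes include hydroxylases of leukotrienes and other fatty acids. Cyp4f13 had 3360 and 3132 counts in the DMSO libraries, 2824 and 2406 in those given TGF-β, and 2030 and 2168 in those given TGF-β+2APB. It fell by 0.32 (SE 0.08, edgeR adjusted p = 0.0249) with TGF-β and by a further 0.34 (SE 0.08, edgeR adjusted p = 0.0412) with TGF-β+2APB. Both small falls were lost without any 1 of the DMSO or TGF-β+2APB libraries (edgeR adjusted p = 0.0918 to 0.241), whereas the fall of 0.66 (SE 0.08) from DMSO to TGF-β+2APB was called in all 15 alternatives.

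Cyp4f16 had 2298 and 2200 counts in the DMSO libraries, 2376 and 1728 in those given TGF-β, and 1412 in each TGF-β+2APB library. The TGF-β libraries lay on both sides of DMSO, and the TGF-β+2APB libraries lay below all others, at -0.70 (SE 0.13, edgeR adjusted p = 0.00612) against DMSO and -0.56 (SE 0.13, edgeR adjusted p = 0.0382) against TGF-β on the log2 scale. The latter was not called without any 1 of the DMSO or TGF-β+2APB libraries (edgeR adjusted p = 0.103 to 0.162). Cyp4f16 and Cyp4f37 share 24.8% of the words of the Cyp4f16 transcript. Cyp4v3, the counterpart of a human retinal fatty acid hydroxylase, went from 462 and 408 counts in DMSO to 262 and 200 with TGF-β and 88 and 158 with 2APB added. Cyp4v3 fell by 1.85 (SE 0.31, edgeR adjusted p = 0.00404) with TGF-β+2APB, while its value of -0.92 (SE 0.30) with TGF-β was not called (edgeR adjusted p = 0.0535). Its call with TGF-β was gained in 7 of 15 alternatives. Cyp4f14, at 50 and 66 counts in DMSO and 6 to 10 in the treated libraries, had fitted log2 fold changes of -3.25 (SE 0.41) and -2.70 (SE 0.39) against DMSO, through which alone it passed the mean. Cyp4f17 (100 to 150 counts per library) and Cyp4f37 (20 to 30) were not called in any comparison.

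Cyp20a1 (chr1:60343323-60388060, plus strand) was the orphan gene among the rises. It had 3494 and 3166 counts in the DMSO libraries, 5308 and 4396 in those given TGF-β, and 3852 and 3876 in those given TGF-β+2APB. It rose by 0.54 (SE 0.08) on the log2 scale with TGF-β (edgeR adjusted p = 0.00466) and was lower by 0.35 (SE 0.08) with TGF-β+2APB than with TGF-β (edgeR adjusted p = 0.0423). The TGF-β+2APB libraries lay between the other groups, 0.19 (SE 0.08) above DMSO, which was not called (edgeR adjusted p = 0.113). The rise was not called without DMSO replicate 2 (edgeR adjusted p = 0.0553), and the later fall was not called without any 1 of the DMSO or TGF-β+2APB libraries (edgeR adjusted p = 0.124 to 0.204).

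Cyp1b1 (chr17:79701537-79715061, minus strand), which activates polycyclic hydrocarbons and hydroxylates estradiol, rose. It had 178 and 206 counts in the DMSO libraries, 830 and 778 in those given TGF-β, and 1348 and 1118 in those given TGF-β+2APB. The 3 groups did not overlap, and the rise on the log2 scale came to 2.06 (SE 0.15, edgeR adjusted p = 0.000361) with TGF-β and 2.65 (SE 0.16, edgeR adjusted p = 0.000101) with TGF-β+2APB against DMSO. Both were called in all 15 alternatives. The step of 0.59 (SE 0.14) between the treated groups passed the test (edgeR adjusted p = 0.044) and was kept in 5 of 15 alternatives. Without any 1 library it was not called, with adjusted p of 0.0808 and 0.0818 without DMSO replicates 1 and 2, 0.0738 and 0.0552 without TGF-β replicates 1 and 2, and 0.255 and 0.0649 without TGF-β+2APB replicates 1 and 2 (edgeR). The other genes of family 1, Cyp1a1 and Cyp1a2, had 10 counts or fewer in every library.

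The promoter of Cyp1b1 is shown because it is the family 1 gene that rose. The window (chr17:79715012-79715311, minus strand, GRCm38.p6) holds the core of the aryl hydrocarbon receptor element, GCGTG, once on the opposite strand, starting 76 bases before the start site and in capitals here as CACGC. That core is common: 32.4% of all windows and 7 of the 30 P450 windows hold it on either strand.
Cyp1b1: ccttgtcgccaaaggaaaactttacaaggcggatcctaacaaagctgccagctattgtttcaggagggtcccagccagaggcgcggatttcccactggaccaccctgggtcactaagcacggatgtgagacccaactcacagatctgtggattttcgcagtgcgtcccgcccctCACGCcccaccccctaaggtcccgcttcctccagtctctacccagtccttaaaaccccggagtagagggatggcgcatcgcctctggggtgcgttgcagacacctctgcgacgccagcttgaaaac

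Steroid and sterol genes were few. By level per kilobase among the 32 genes, Cyp39a1 was 14th in DMSO, 8th with TGF-β and 6th with TGF-β+2APB. Cyp21a1 was 26th, 10th and 7th in the same order, Cyp46a1 was 24th, 20th and 22nd, and Cyp11a1 was 31st, 24th and 16th. Cyp21a1 (chr17:34801348-34804561, minus strand), the adrenal steroid hydroxylase, had 52 and 50 counts in the DMSO libraries, 230 and 216 in those given TGF-β, and 306 and 244 in those given TGF-β+2APB. It rose by 2.12 (SE 0.21, edgeR adjusted p = 0.001) with TGF-β and by 2.40 (SE 0.21, edgeR adjusted p = 0.000405) with TGF-β+2APB against DMSO, in all 15 alternatives, and 26.5% of its 50-base words occur in other genes, most of them in the pseudogene Cyp21a2-ps. Cyp11a1, the enzyme that starts steroid synthesis from cholesterol, had 30 and 20 counts in the DMSO libraries, 24 and 16 in those given TGF-β, and 54 and 52 in those given TGF-β+2APB. The TGF-β+2APB libraries lay above all others, by 1.06 (SE 0.36, edgeR adjusted p = 0.0525) against DMSO and 1.38 (SE 0.37, edgeR adjusted p = 0.0548) against TGF-β on the log2 scale, neither of which was called. The first was called in 5 of 14 alternatives and the second in 1 of 14.

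Cyp39a1, which hydroxylates oxysterols on the way to bile acids, had 978 and 948 counts in the DMSO libraries, 436 and 528 in those given TGF-β, and 702 and 584 in those given TGF-β+2APB. Its log2 value changed by -0.997 (SE 0.16, edgeR adjusted p = 0.0055) with TGF-β and by -0.61 (SE 0.16, edgeR adjusted p = 0.0233) with TGF-β+2APB against DMSO. The second fall was not called without DMSO replicate 1 (edgeR adjusted p = 0.101), DMSO replicate 2 (0.112) or TGF-β+2APB replicate 2 (0.113), and the difference of 0.39 (SE 0.16) between the treated groups was not called (edgeR adjusted p = 0.165). Cyp46a1, the cholesterol hydroxylase of neurons, had 98 and 86 counts in the DMSO libraries, 40 and 24 in those given TGF-β, and 12 and 14 in those given TGF-β+2APB. It fell in both treated groups, with values against DMSO of -1.53 (SE 0.34, edgeR adjusted p = 0.0161) and -2.84 (SE 0.37, edgeR adjusted p = 0.00155) on the log2 scale, the first of which was not called without DMSO replicate 1 (edgeR adjusted p = 0.102) or DMSO replicate 2 (0.0808).

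The members closest to the mean of 20 were Cyp26b1 and Cyp27b1, both at a mean of 22. Cyp26b1, which clears retinoic acid, had 0 and 12 counts in the DMSO libraries, 16 and 18 in those given TGF-β, and 44 and 42 in those given TGF-β+2APB. The groups did not overlap, but the log2 fold change of 1.46 (SE 1.10) with TGF-β was not called (edgeR adjusted p = 0.335). Cyp26b1 reached a group mean of 20 with TGF-β+2APB alone, so that higher values there were built in. Its fitted log2 fold change of 2.77 (SE 1.08) with TGF-β+2APB against DMSO is therefore given without a p. Without DMSO replicate 2, DMSO keeps only the library at 0 counts, so that no fold change is given for that fit. Cyp27b1, which activates vitamin D, had 14 to 28 counts in every library and was not called in any comparison. Just below the mean were the pseudogene Cyp4f41-ps (mean 19, with 12 to 26 counts per library), Cyp2u1 (18.7, with 36 and 44 counts in DMSO and 2 to 18 elsewhere), Cyp4a30b (18.3) and Cyp4f18 (18). Cyp4f18, the leukotriene hydroxylase of white blood cells, had 86 counts in TGF-β+2APB replicate 2 and 10 or fewer in the other libraries. In the same library Ptprc and Cd68, markers of white blood cells, had 752 and 628 counts, against 36 to 224 and 120 to 262 elsewhere.

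Por, the reductase that supplies most P450 enzymes with electrons, had 13198 and 12332 counts in the DMSO libraries, 11024 and 8162 in those given TGF-β, and 7508 and 8666 in those given TGF-β+2APB. Its log2 fold change of -0.42 (SE 0.13) with TGF-β was not called (edgeR adjusted p = 0.0518), and it fell by 0.69 (SE 0.13) with TGF-β+2APB against DMSO (edgeR adjusted p = 0.00767). Of the 9 redox partners tested, 2 rose and 3 fell with TGF-β, 2 rose and 5 fell with TGF-β+2APB against DMSO, and 1 rose and 2 fell between the treated groups. For this and the following lists, the shares over all genes are those given above: 21.8% higher and 19.7% lower with TGF-β, 25.6% and 27.2% with TGF-β+2APB against DMSO, and 6.58% and 10.9% between the treated groups. The 2 rises of 9 with TGF-β are near that share. The cytochrome b5 gene Cyb5 changed by -1.47 (SE 0.12) and -2.34 (SE 0.13) on the log2 scale against DMSO. Of the mitochondrial partners, Fdx1 fell by 0.92 (SE 0.09) with TGF-β and Fdxr rose by 1.02 (SE 0.10) with TGF-β+2APB against DMSO.

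Alas1, the rate-limiting enzyme of heme synthesis, had 3826 to 5546 counts in the 6 libraries and was not called in any comparison. Of the 9 heme synthesis genes, 2 (Ppox and Fech, by 0.45 and 0.41 on the log2 scale) fell with TGF-β, and 2 rose and 3 fell with TGF-β+2APB against DMSO, Alas2 by 1.70 (SE 0.37) and Fech by -0.64 (SE 0.09) being the largest. Between the treated groups edgeR called 0 of the 9 genes, with 4 at an unadjusted p under 0.05, and DESeq2 called 1. Of the 4 heme breakdown genes, 1 fell with TGF-β (Blvrb, by 1.24 with an SE of 0.21), 2 rose and 2 fell with TGF-β+2APB against DMSO, and 1 rose between the treated groups (Hmox1, by 0.83 with an SE of 0.12).

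Of the 14 regulators of P450 genes listed, 11 were tested, of which 1 rose and 6 fell with TGF-β (21.8% and 19.7% of all genes did), 1 rose and 7 fell with TGF-β+2APB against DMSO (25.6% and 27.2%), and 2 fell between the treated groups (10.9%). Nr1i2, which encodes the pregnane X receptor, had 186 and 202 counts in the DMSO libraries, 8 and 6 in those given TGF-β, and 4 in each TGF-β+2APB library, and fell by 4.78 (SE 0.32) on the log2 scale with TGF-β. This gene reached a group mean of 20 in DMSO alone, so that its falls against DMSO, counted above, were built in. Ppara, the fatty acid receptor known to control Cyp4a genes, had 510 and 394 counts in the DMSO libraries, 92 and 50 in those given TGF-β, and 48 and 76 in those given TGF-β+2APB, and changed by -2.68 (SE 0.37) and -2.89 (SE 0.37) against DMSO, both called. Nr5a2 and Nr1h4, which encode the receptors LRH-1 and FXR, fell in each comparison, with values of -2.60 (SE 0.30) and -2.12 (SE 0.24) between the treated groups. Ahr, the aryl hydrocarbon receptor, was the one that rose, from 11262 and 10782 counts in DMSO to 14844 and 17222 in the TGF-β libraries and 16752 and 16232 in the TGF-β+2APB libraries, a log2 fold change of 0.54 (SE 0.11, edgeR adjusted p = 0.012) and 0.55 (SE 0.11, edgeR adjusted p = 0.0083).

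**Figure D5:**
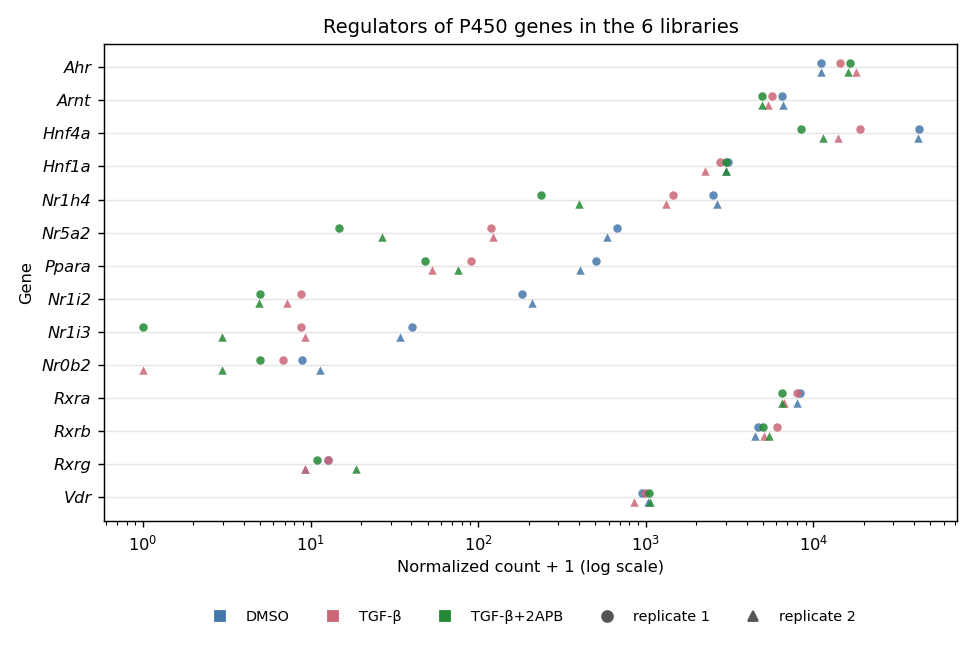
Normalized count + 1 (x axis, log scale) of 14 regulators of P450 genes (y axis) in the 6 libraries, with color for the group and symbol for the replicate. Nr1i2, Ppara, Nr5a2 and Hnf4a lie lower in the treated libraries than in DMSO and Ahr lies higher.

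Genes other than P450s that the same receptors are known to induce were counted beside them. Of the 8 listed targets of the aryl hydrocarbon receptor, 5 were tested, and these 5 fell in both comparisons with DMSO, where 19.7% and 27.2% of all genes fell. Of the 5, Gsta1 passed the filter through DMSO alone. Aldh3a1 had 154 and 136 counts in the DMSO libraries, 34 and 14 in those given TGF-β, and 2 in each TGF-β+2APB library, and Gsta1 had 114 and 120 counts in the DMSO libraries, 0 in both TGF-β libraries and 0 and 4 in those given TGF-β+2APB. Of the 10 tested targets of PPARA (13 listed), 3 rose (Pdk4, Angptl4 and Plin2, named after their values were seen) and 7 fell with TGF-β, and 2 rose and 7 fell with TGF-β+2APB against DMSO. Vnn1 fell by 4.31 (SE 0.29) and Acot1 by 1.83 (SE 0.19) on the log2 scale with TGF-β, and Cpt1a fell by 2.74 (SE 0.20) with TGF-β+2APB against DMSO. Between the treated groups, 2 of the 5 and, among the PPARA targets, 3 of the 10 fell and 1 of the 10 rose.

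Of the 10 retinoid genes tested (13 listed), 3 rose and 1 fell with TGF-β, where 21.8% and 19.7% of all genes did. With TGF-β+2APB against DMSO 5 rose and 2 fell (25.6% and 27.2% of all genes), and 3 rose and 2 fell between the treated groups (6.58% and 10.9%). Aldh1a1, a retinaldehyde dehydrogenase, had 5618 and 5054 counts in the DMSO libraries, 478 and 316 in those given TGF-β, and 28 and 54 in those given TGF-β+2APB. Rdh10, the retinol dehydrogenase upstream of it, rose by 1.53 (SE 0.08) with TGF-β, and Crabp2, which carries retinoic acid to its receptors, rose by 3.38 (SE 0.60) from TGF-β to TGF-β+2APB on the log2 scale. Crabp2 and Aldh1a2 reached a group mean of 20 with TGF-β+2APB alone, so that higher values there were built in.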

How the data were processed

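RNA of NMuMG cells was sequenced as 50-base single-end reads, and the authors checked reads with FastQC 0.11.2, aligned them with TopHat2 2.0.13 and counted them per gene with featureCounts. The deposited values were taken as these raw counts. However, every value is even, and the library totals, 71840570 or more, exceed the average number of reads per sample that the paper gives. The reason is not given in the sources used here. The limits of 20 and 3 counts are on the scale of the deposited values, and may stand for fewer reads. The processing notes name mm10 while the methods name hg19, and the symbols are mouse symbols. Annotation, strand and multi-mapping settings are not given in the sources used here. All 76 P450 entries were matched to GENCODE M21 (GRCm38) for exon length.

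Counts were fitted in R 4.3.3 with edgeR 4.0.16 (TMM, quasi-likelihood F-test, 3 groups in 1 fit, no covariates). Genes with a mean normalized count of 20 or more were tested (13353), with Benjamini-Hochberg adjustment over all of them and a threshold of 0.05. SE is the log2 fold change over the square root of F. The script was tested on simulated data. Alternatives were DESeq2 1.42.0, other scalings and filters, halved counts, a replicate block and leaving out each library. Named genes were the 10 highest per kilobase, the 5 largest called rises and falls per comparison, all retinoid, vitamin D, steroid and sterol genes, the genes nearest the mean of 20, and the 2 largest called changes of each list. The members and lists were chosen with earlier results of these data known. Replicates are cultures of 1 cell line.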

Additional observations from a re-analysis of the deposited data

How the results depend on the processing

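The falls of most P450 genes against DMSO kept their direction and side of the threshold. Counts of P450 genes called (edgeR, adjusted p of 0.05 or less) moved by over 1.5 times as follows. With at least 10 counts in every library, which leaves 21 of the 32 genes, 11 fell with TGF-β, 12 fell with TGF-β+2APB against DMSO, and 2 rose between the treated groups. With only the 4 libraries compared, 4 rose with TGF-β+2APB against DMSO, and between the treated groups 0 rose and 2 fell. The 1 rise between the treated groups, Cyp1b1, was lost (0 rises) with library size scaling, with no filter, with the replicate block and with only 4 libraries. Leaving out 1 library at a time gave 3 rises and 14 to 21 falls with TGF-β (without DMSO replicate 2 the 3 rises held Cyp26b1 in place of Cyp20a1), 2 to 4 rises and 17 to 22 falls with TGF-β+2APB against DMSO, and 0 to 2 rises and 4 to 13 falls between the treated groups. DESeq2 called 3 rises and 21 falls, 2 rises and 22 falls, and 1 rise and 13 falls in the same order.

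Whether equal replicate numbers mark paired cultures is not settled. Same-numbered deviations correlated at 0.15 for the pair of DMSO and TGF-β, -0.46 for DMSO with TGF-β+2APB, and -0.26 for the treated groups with each other. These values cannot decide it, because each group gives only 1 difference between replicates per gene. With the replicate block, 3 rose and 19 fell, 2 rose and 21 fell, and 0 rose and 6 fell. With the TGF-β+2APB numbers exchanged in the block, an alternative chosen after seeing the data, 3 rose and 21 fell, 2 rose and 22 fell, and 1 rose and 11 fell.

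Direction turned only for genes that were not called. Cyp2t4 between the treated groups was -0.014 with library size scaling. Leaving out 1 library gave log2 fold changes from -0.33 to 0.031 for Cyp4f16, -0.22 to 1.04 for Cyp2e1, -0.35 to 0.085 for Cyp2t4 and -0.035 to 0.68 for Cyp27b1 with TGF-β. They ran from -0.45 to 0.16 for Cyp2t4 and -0.14 to 0.31 for Cyp4f37 with TGF-β+2APB against DMSO. Between the treated groups they ran from -0.37 to 0.25 for Cyp2d26, -0.73 to 0.52 for Cyp2e1, -0.33 to 0.29 for Cyp2t4 and -0.40 to 0.054 for Cyp4f37. The causes were not tested. With 2 replicates per group, calls of genes at low counts moved with the setting: the differences of 1.06 and 1.38 for Cyp11a1, at 16 to 54 counts, were not called, yet the first was called in 5 of 14 alternatives and the second in 1.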

Other observations

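The 44 P450 entries under the mean of 20 were mostly at the edge of detection: 13 had 3 counts or fewer in every library and 32 had no library over 10 counts. Of the 44, 21 had counts in DMSO alone, but the share of such entries over the whole table was not counted. The highest of these were Cyp4a30b, Cyp2c69, at 18 and 12 counts in DMSO, and Cyp2c38, at 6 and 10. The others had 4 counts or fewer in every library, and many, such as Cyp2c39 and Cyp3a11, had counts in only 1 DMSO library. Cyp24a1, which degrades active vitamin D, had 0 counts in both DMSO libraries and 4 to 12 in the treated ones. Cyp19a1, the aromatase gene, had 12 counts or fewer and Cyp17a1 had 4 or fewer in every library. The genes of classical bile acid synthesis in the table were also low, with Cyp27a1 at 20 counts or fewer and Cyp8b1 at 4 or fewer.

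Of the P450 genes that the symbol rule leaves out, Cyp51, an enzyme of cholesterol synthesis, had 7430 and 6428 counts in the DMSO libraries, 7366 and 6440 in those given TGF-β, and 5060 and 5104 in those given TGF-β+2APB. It changed on the log2 scale by -0.01 (SE 0.08, edgeR adjusted p = 0.943) with TGF-β and -0.46 (SE 0.08, edgeR adjusted p = 0.0184) from TGF-β to TGF-β+2APB. Tbxas1, the thromboxane synthase gene, had 152 to 458 counts and was not called in any comparison. Its highest value was in TGF-β+2APB replicate 2, the library with the high leukocyte sum. Ptgis, the prostacyclin synthase gene, had 8 counts or fewer in every library.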
